A study of Mus musculus with 12 samples.

Results

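Gzma, Gzmb, Prf1 and Nkg7 encode proteins of the cytotoxic granule, the vesicle with which CD8 T cells and NK cells kill target cells. These 4 genes were taken by symbol from the 750 endogenous probes of an nCounter Mouse PanCancer IO360 panel, an assay that counts fluorescent barcodes bound to chosen transcripts. They were chosen with earlier results on these tumours known, in which Gzma and Gzmb differed between several treatment groups. The 12 libraries came from mammary gland tumours of MMTV-PyMT mice. This transgene places the polyoma virus middle T oncogene under the promoter of mouse mammary tumour virus. All 5 group labels include PTX, the chemotherapy, so no group was untreated. The groups were PLX+PTX+aPD-L1 (n = 2, here the aPD-L1 group), PLX+PTX+aPD-1 in a set of titles ending in R (n = 3, here R) and in a set ending in NR (n = 3, here NR), PLX+PTX (n = 2) and PTX (n = 2). The series title speaks of CSF1R inhibition, which PLX stood for, and aPD-1 and aPD-L1 were antibodies against the checkpoint receptor PD-1 and its ligand PD-L1. The labels give no dose, time or age, do not expand R and NR, and do not say whether the libraries of a group came from separate animals.

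Killing through granules needs several of these products together. Perforin, the product of Prf1, forms pores in the target cell membrane, and through its action the serine proteases granzyme A (Gzma) and granzyme B (Gzmb) reach the target's cytosol. Granzyme B cleaves after aspartate and activates caspases, whereas granzyme A has trypsin-like specificity and is abundant in resting NK cells. Nkg7 encodes a granule membrane protein that takes part in granule release. In mouse CD8 T cells the RUNX and T-box factors (Runx3, Tbx21, Eomes) are known to drive these genes. In bulk tumour RNA, fewer cells of a type and less RNA per cell cannot be told apart.

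In the RefSeq table of assembly GRCm38.p6, Gzma lay on the minus strand at chr13:113093824-113100981, Gzmb on the minus strand at chr14:56258836-56262334, Prf1 on the plus strand at chr10:61297751-61304684 and Nkg7 on the plus strand at chr7:43437138-43438246. The 250 bases before the annotated start were read because Gzma and Gzmb varied together over the libraries. They are shown for the 3 genes whose promoter start matched the edge of the RefSeq gene. They are given 5′ to 3′ on the strand of the gene and span chr13:113100982-113101231 for Gzma, chr14:56262335-56262584 for Gzmb and chr7:43436888-43437137 for Nkg7. Capitals mark matches, on either strand, to TGTGGT (RUNX), TGANTCA (AP-1), TGACGT (a CRE core), GTGTGA (T-box) or CAGGAAG (ETS).
Gzma: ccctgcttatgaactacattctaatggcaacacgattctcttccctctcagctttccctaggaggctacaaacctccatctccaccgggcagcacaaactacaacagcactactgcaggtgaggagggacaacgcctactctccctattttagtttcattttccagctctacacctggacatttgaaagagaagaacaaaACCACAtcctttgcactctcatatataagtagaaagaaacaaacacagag
Gzmb: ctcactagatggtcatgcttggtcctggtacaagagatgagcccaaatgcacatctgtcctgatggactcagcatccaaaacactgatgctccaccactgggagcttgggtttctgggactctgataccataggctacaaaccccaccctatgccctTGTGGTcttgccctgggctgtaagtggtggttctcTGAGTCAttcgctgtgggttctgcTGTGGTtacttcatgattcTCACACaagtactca
Nkg7: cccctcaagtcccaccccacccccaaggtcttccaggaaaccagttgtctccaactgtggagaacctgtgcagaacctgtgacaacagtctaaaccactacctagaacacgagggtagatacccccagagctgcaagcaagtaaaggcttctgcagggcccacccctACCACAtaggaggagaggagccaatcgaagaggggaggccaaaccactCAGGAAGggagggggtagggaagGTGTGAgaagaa
A RUNX match stood in all 3 windows, at bases -50 to -45 of Gzma, -93 to -88 and -34 to -29 of Gzmb, and -83 to -78 of Nkg7, counted back from the start. Windows of the same length held this motif in 14.2% of 27025 promoters. Gzmb also had an AP-1 match at -58 to -52 (6.87% of promoters) and a T-box match at -15 to -10 (12.2%). Nkg7 had a T-box match at -12 to -7 and an ETS match at -35 to -29 (10.5%). None of the 3 windows shown held the CRE core (6.56%). The Prf1 window is not shown, because its start did not match the gene edge. It had a RUNX match at -130 to -125, a CRE core at -92 to -87 and ETS matches at -197 to -191 and -110 to -104. All these matches are descriptions of the letters only.

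Both aPD-L1 libraries and R replicate 2 had low signal, with totals of 98741 to 141021 endogenous counts against 298726 to 531086 in the other 9. Housekeeping probes had geometric means of 86.6 to 189 counts in the 3 and 260.4 to 450.2 in the 9, while positive controls gave 968 to 1401 in all 12. The detection limit was set per library at 2 SD over the average of the 8 negative-control probes, and lay between 19.1 and 35.6 counts. Normalised counts are raw counts scaled to a common housekeeping signal, which raises the background of a library with little signal. The scaled negative controls averaged 27.2 ± 7.50 in the aPD-L1 group, 20.9 ± 2.63 in R, 11.9 ± 2.28 in NR, 14.8 ± 2.43 in PLX+PTX and 12.4 ± 2.39 in PTX (SD). Tumour epithelium was present by its markers, since all 3 on the panel passed the limit in at least 6 libraries. Of 7 T cell markers, 1 passed the limit in at least 6 libraries and 4 in none, and of 3 NK cell markers 0 and 1, though none was at 0.

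Cytotoxic granule transcripts were at or close to background in most tumours. Over the whole panel, 374 to 550 of the 750 endogenous probes exceeded the detection limit per library, with 329 above it in all 12 and 148 in none. Of the 48 pairs of a granule gene and a library, 6 exceeded the detection limit and 25 exceeded the mean of the negative controls. The 6 comprised 4 for Gzmb, 1 for Gzma, 1 for Nkg7 and 0 for Prf1. PLX+PTX replicate 2, whose limit of 20.3 counts was among the lowest, held 3 of the 6, and the aPD-L1 group held 0 of its 8 pairs. A probe was tested when it had 20 or more counts in at least 2 libraries, which 615 of the 750 probes did. Gzmb reached 20 counts in 7 libraries, Nkg7 in 4, Gzma in 3 and Prf1 in 0, so Prf1 was not tested.

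**Figure D1:**
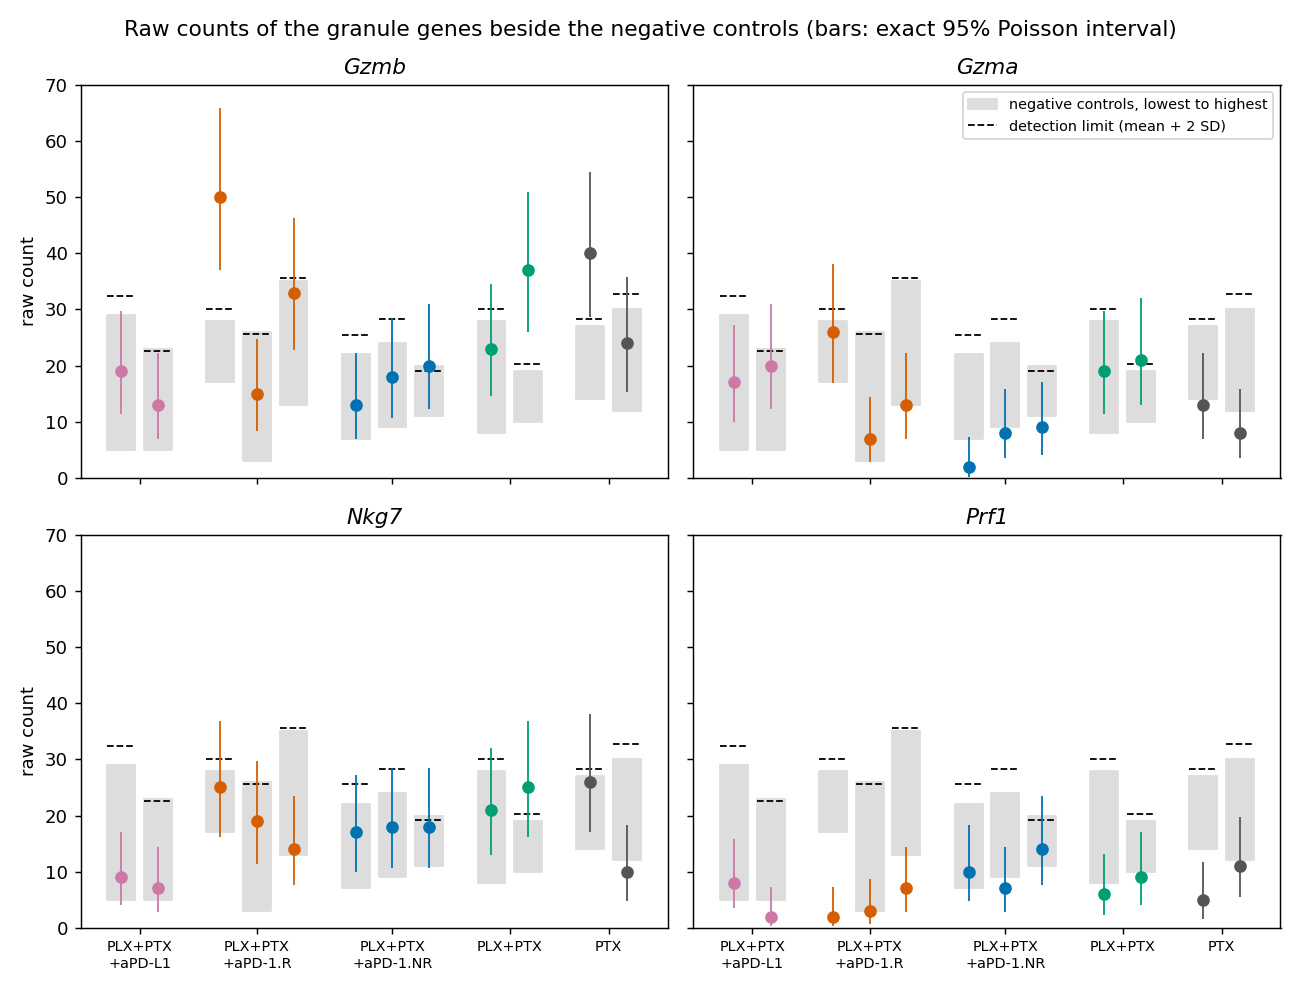
Raw counts of Gzmb, Gzma, Nkg7 and Prf1 in each of the 12 libraries (points, with exact 95% Poisson intervals), beside the lowest-to-highest span of the 8 negative-control probes (grey) and the detection limit (dashed). Gzmb stands above the limit in 4 libraries, Gzma and Nkg7 in 1 each and Prf1 in none.

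Gzmb, the caspase-activating protease, was the most abundant of the 4 probes in summed raw counts. It gave 19 and 13 counts in the aPD-L1 libraries, 50, 15 and 33 in R, 13, 18 and 20 in NR, 23 and 37 in PLX+PTX, and 40 and 24 in PTX. Counts above the limit came from R replicate 1, NR replicate 3, PLX+PTX replicate 2 and PTX replicate 1, so no group had more than 1 such library. The highest, 50 counts, had an exact 95% Poisson interval of 37.1 to 65.9. Such intervals cover counting error only, and the targets were amplified before counting. Among the 750 probes Gzmb ranked between 390 and 576 by raw count. Relative to the negative-control mean it was 1.15 and 1.16 in the aPD-L1 libraries, 2.29, 1.24 and 1.63 in R, 0.867, 1.04 and 1.495 in NR, 1.32 and 2.47 in PLX+PTX, and 2.08 and 1.25 in PTX. It exceeded that mean in 11 of 12 libraries, and NR replicate 1 was the exception.

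Gzma, the trypsin-like granzyme, was lower and more variable. Raw counts were 17 and 20 in the aPD-L1 libraries, 26, 7 and 13 in R, 2, 8 and 9 in NR, 19 and 21 in PLX+PTX, and 13 and 8 in PTX. The 3 libraries with 20 or more counts were aPD-L1 replicate 2, R replicate 1 and PLX+PTX replicate 2, and only the last passed its limit. No NR or PTX library reached the mean of its negative controls, and in 5 libraries Gzma lay below all 8 negative probes. Its ratio to the negative-control mean was 1.03 and 1.78 in the aPD-L1 libraries, 1.19, 0.577 and 0.642 in R, 0.133, 0.460 and 0.673 in NR, 1.09 and 1.40 in PLX+PTX, and 0.675 and 0.418 in PTX.

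Nkg7, the granule membrane gene, was near background throughout. It had 9 and 7 raw counts in the aPD-L1 libraries, 25, 19 and 14 in R, 17, 18 and 18 in NR, 21 and 25 in PLX+PTX, and 26 and 10 in PTX. In raw counts both aPD-L1 libraries were lower than each of the other 10, as for 21.6% of tested probes. That order did not hold on the other scales. Relative to the negative-control mean they stood at 0.545 and 0.622, with PTX replicate 2 lower at 0.523, and in normalised counts they had 11.9 and 20.2 and overlapped the other groups. In NR the 3 libraries were almost level, while the PTX pair was spread as widely as any group.

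Prf1, the pore-forming gene without which granzymes are not delivered, had no count above the detection limit. It had 8 and 2 raw counts in the aPD-L1 libraries, 2, 3 and 7 in R, 10, 7 and 14 in NR, 6 and 9 in PLX+PTX, and 5 and 11 in PTX. In 8 libraries it lay below all 8 negative probes, and it exceeded the negative-control mean in 1 library, NR replicate 3. Its values are therefore given as a description of the probe, and its expression was not detectable at this depth.

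**Figure D2:**
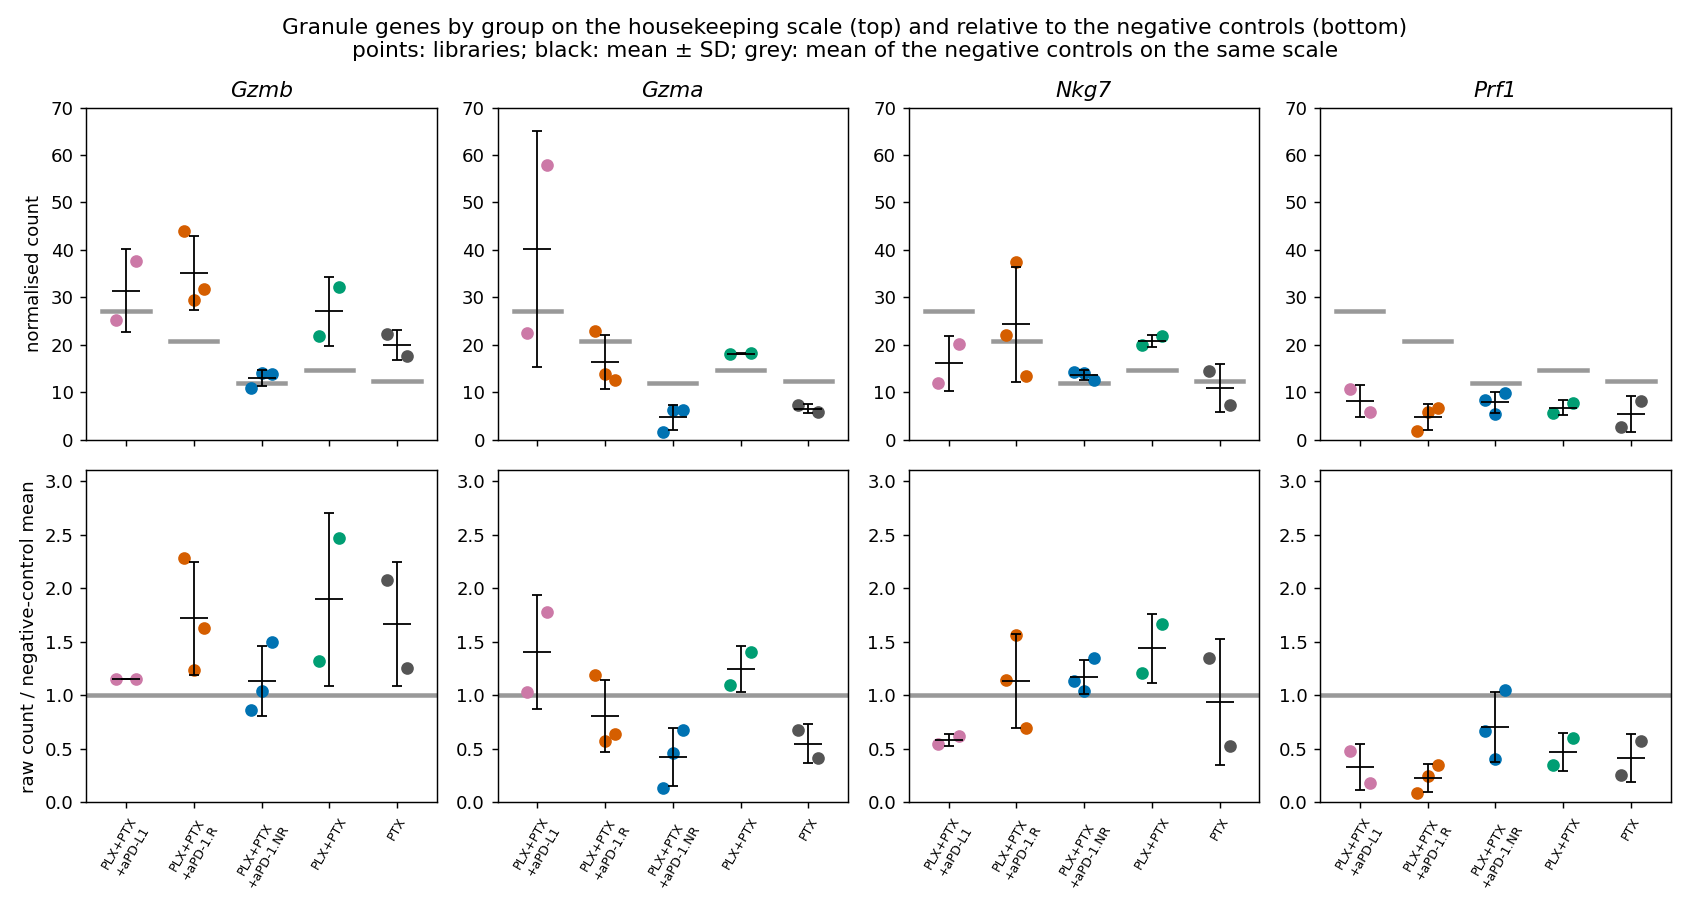
Normalised counts (top) and raw counts over the negative-control mean (bottom) of the 4 genes by group; points are libraries, black bars mean ± SD, grey lines the mean of the negative controls on the same scale. For Gzma and Gzmb all R points lie above all NR points in the top row, and the 2 groups overlap in the bottom row.

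On the housekeeping scale Gzma was highest in the aPD-L1 group and lowest in NR. It averaged 40.2 ± 24.9 normalised counts in the aPD-L1 group, 16.4 ± 5.64 in R, 4.75 ± 2.65 in NR, 18.2 ± 0.171 in PLX+PTX and 6.56 ± 0.946 in PTX (SD). In descending order, the aPD-L1 group and PLX+PTX did not overlap (23.1% of tested probes were likewise higher in the aPD-L1 group) and neither did R and PTX (10.7% likewise higher in R), whereas PLX+PTX with R and PTX with NR overlapped. The 2 aPD-L1 libraries were far apart, at 22.6 and 57.8.

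Gzmb averaged 31.4 ± 8.73 normalised counts in the aPD-L1 group, 35.1 ± 7.76 in R, 13.03 ± 1.77 in NR, 27.02 ± 7.34 in PLX+PTX and 19.95 ± 3.23 in PTX. NR, the lowest, did not overlap PTX, as for 21.8% of tested probes in that direction, and every other pair of neighbours in the order overlapped. Nkg7 averaged 16.1 ± 5.86 in the aPD-L1 group, 24.3 ± 12.2 in R, 13.7 ± 1.003 in NR, 20.9 ± 1.29 in PLX+PTX and 10.9 ± 5.02 in PTX, with overlap between all neighbours. Prf1 averaged 4.80 to 8.20 in the 5 groups, and these also overlapped from neighbour to neighbour. Relative to the negative controls the orders differed. Gzmb was then highest in PLX+PTX (1.90 ± 0.808) and lowest in NR (1.13 ± 0.325), and Nkg7 was highest in PLX+PTX (1.44 ± 0.324) and lowest in the aPD-L1 group (0.584 ± 0.0543). Gzma kept its order of groups, and there every pair of neighbours overlapped.

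The question of the next 3 comparisons was whether the granule genes differed in tumours given PLX+PTX+aPD-L1 from those given the other treatments. They came from one fit of all 12 libraries, with p-values adjusted over the 615 tested probes. Low Gzma in NR and in PTX was known when the genes were chosen, so the differences from the mean of R and NR and from PTX are given as descriptions. The comparison with PLX+PTX, whose libraries also entered that choice, is given with its test.

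Gzma had a higher mean in the aPD-L1 group than the mean of R and NR, with a log2 fold change of 2.04 (SE 0.44). The aPD-L1 libraries had 22.6 and 57.8 normalised counts, against 22.9, 13.8 and 12.5 in R and 1.69, 6.29 and 6.27 in NR. The groups overlapped, because aPD-L1 replicate 1 was just under R replicate 1. Gzmb had a log2 fold change of 0.49 (SE 0.31) and Nkg7 one of -0.23 (SE 0.45). In the ratio to the negative controls both aPD-L1 libraries were under all R and NR libraries for Nkg7, as for 24.6% of the tested probes. The unfiltered fit gave 0.57 (SE 0.57) for Prf1.

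Gzma also had a higher mean in the aPD-L1 group than in PTX (log2 fold change 2.48, SE 0.55). It had 22.6 and 57.8 normalised counts in the aPD-L1 libraries against 7.23 and 5.89 in PTX. The groups did not overlap, and the same held for raw counts and for the ratio to the negative controls. Without overlap and higher in normalised counts were 24.7% of the tested probes, with 2.6% in raw counts and 4.55% in the ratio. Gzmb was at 25.2 and 37.6 normalised counts in the aPD-L1 libraries against 22.2 and 17.7 in PTX, also without overlap (log2 fold change 0.60, SE 0.37). In the ratio to the negative controls Gzmb turned round, with both aPD-L1 libraries under both PTX libraries, as 77.4% of the tested probes were. Nkg7 had a log2 fold change of 0.44 (SE 0.53), and Prf1 one of 0.78 (SE 0.65) in the unfiltered fit.

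Against PLX+PTX none of the 3 granule genes in the fit passed the edgeR quasi-likelihood test, and 2.28% of all tested probes did. Gzma had a log2 fold change of 1.04 (SE 0.51, edgeR adjusted p = 0.354), with 22.6 and 57.8 normalised counts in the aPD-L1 libraries against 18.04 and 18.3 in PLX+PTX. The groups did not overlap, as for 23.1% of tested probes in that direction. Gzmb had one of 0.16 (SE 0.37, edgeR adjusted p = 0.895), Nkg7 one of -0.46 (SE 0.51, edgeR adjusted p = 0.687) and Prf1 one of 0.39 (SE 0.65). In the ratio to the negative controls both aPD-L1 libraries were lower than both PLX+PTX libraries for Gzmb and Nkg7, as were 68.6% of the tested probes. These 3 comparisons share the aPD-L1 libraries, so their values do not repeat each other independently.

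In the fit, Gzma alone of the 3 granule genes was under the threshold against the mean of R and NR (edgeR adjusted p = 0.0149), as were 5.69% of all tested probes, each of them higher. It was also the one under it against PTX (edgeR adjusted p = 0.0319), as were 3.25% of all probes, and 3.09% were under it and higher. Because known low values in NR and PTX led to the choice of the gene, these p-values are not independent support. Against PTX, Gzma missed the threshold in 6 of 21 alternatives, among them without PTX replicate 1 (edgeR adjusted p = 0.186), without PTX replicate 2 (0.138), with negative-control scaling (0.0517) and after subtraction of the negative controls (limma adjusted p = 0.274). Against R and NR it did so in 3 of 21, among them subtraction (limma adjusted p = 0.331).

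Several measures moved with the Gzma difference. The aPD-L1 libraries had low signal, and 148 probes above the limit in no library also lay higher there, by a median log2 fold change of 0.74 against the mean of R and NR and 0.80 against PTX. Of those 148, 2 exceeded Gzma in each of these comparisons, and the median of all 615 was 0.10 against R and NR and 0.00 against PTX. Against PLX+PTX the 148 had a median of 0.68, and 37 of them exceeded Gzma, as did 64 of the 615 tested probes. With positive-control scaling Gzma missed the threshold, at a log2 fold change of 0.90 (edgeR adjusted p = 0.125) against R and NR and 0.98 (adjusted p = 0.147) against PTX. That scaling put the median of all tested probes at -0.95 and -1.45 in the same comparisons. Of all probes that passed with that scaling, 158 of 170 were lower in the aPD-L1 group than in R and NR and 356 of 365 lower than in PTX, whereas with housekeeping scaling 35 of 35 and 19 of 20 were higher. Without aPD-L1 replicate 2 Gzma missed it too, at 1.31 (edgeR adjusted p = 0.222) and 1.75 (adjusted p = 0.145). The 7 T cell markers summed to 131 to 205 normalised counts in the aPD-L1 group, 87.5 to 142 in R, 73.2 to 82.0 in NR, 79.8 to 83.6 in PLX+PTX and 76.2 to 92.8 in PTX. The 3 NK cell markers on the panel summed to 53.1 to 63.6 in the aPD-L1 group, 28.8 to 36.9 in R, 31.3 to 41.8 in NR, 35.1 to 49.6 in PLX+PTX and 24.5 to 39.8 in PTX. As a mean ratio to the negative controls, the T cell markers ran from 0.857 to 0.902 in the aPD-L1 group and from 0.642 to 1.18 in the others. The NK cell markers ran from 0.652 to 0.808 in the aPD-L1 group and from 0.494 to 1.495 in the others by that ratio. The part of signal, background and lymphocyte content in the Gzma difference was not tested.

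**Figure D3:**
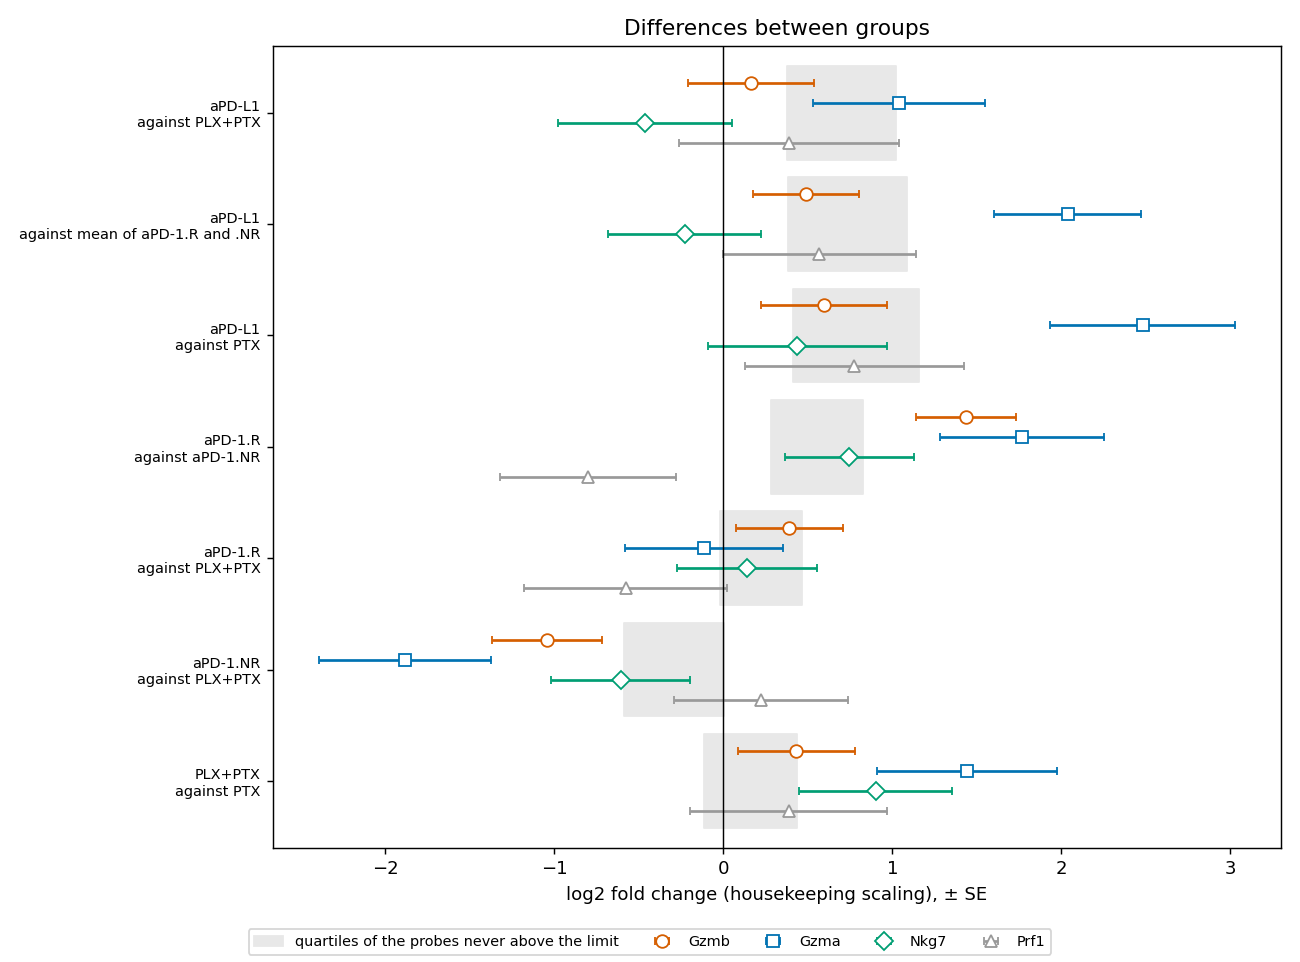
Log2 fold changes (housekeeping scaling, ± SE) of the 4 genes in the 7 comparisons, with the quartiles of the 148 probes never above the detection limit in grey. Gzma lies farthest to the right in the aPD-L1 group against PTX (2.48) and farthest to the left in NR against PLX+PTX (-1.88).

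In the other 4 comparisons the values had also led to the choice of these genes, so they are described without a test. By edgeR, 0 of the 615 probes passed in any of them, with 42 at an unadjusted p under 0.05 for R against NR, 15 for R against PLX+PTX, 23 for NR against PLX+PTX and 12 for PLX+PTX against PTX. DESeq2 and limma-voom also gave 0 in each.

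Between the aPD-1 groups, both granzymes and Nkg7 had higher means in R, and Prf1 a lower one. Gzmb had 43.9, 29.6 and 31.7 normalised counts in R against 10.99, 14.2 and 13.9 in NR (log2 fold change 1.44, SE 0.30), and Gzma differed by 1.77 (SE 0.48). For both, every R library lay above every NR library, as did 11.5% of all tested probes, and R replicate 2 was of low signal. Nkg7 differed by 0.75 (SE 0.38), with 22.0, 37.4 and 13.5 in R against 14.4, 14.2 and 12.5 in NR, and it overlapped through R replicate 3. Prf1 had 1.76, 5.91 and 6.73 in R against 8.45, 5.51 and 9.75 in NR (log2 fold change -0.80, SE 0.52). The 4 genes had a median of 1.09, against 0.11 over all 615 probes and 0.54 over the 148 never above the limit. Since values of this comparison led to the choice of the genes, that distance is a description and not support. In raw counts and in the ratio to the negative controls the R and NR libraries overlapped for Gzma, Gzmb and Nkg7, while Prf1 was lower in every R library by ratio, as in 42% of tested probes. With negative-control scaling, chosen after the data were seen, Gzma differed by 0.97, Gzmb by 0.63 and Nkg7 by -0.08.

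R and PLX+PTX were not separated for any of the 4 genes, which with 3 and 2 libraries does not show that they were alike. The log2 fold changes were -0.12 (SE 0.47) for Gzma, 0.39 (SE 0.32) for Gzmb, 0.14 (SE 0.41) for Nkg7 and -0.58 (SE 0.60) for Prf1, and every gene overlapped between the groups. In NR, by contrast with PLX+PTX, Gzma, Gzmb and Nkg7 were lower in every library, in normalised and in raw counts, as were 18.4% of tested probes in normalised counts and 6.99% in raw counts. The log2 fold changes were -1.88 (SE 0.51), -1.05 (SE 0.33) and -0.61 (SE 0.41), and Prf1 had one of 0.22 (SE 0.51). Gzma had the lowest fold change of all 615 tested probes here, since the other 614 had higher ones. Its NR counts of 2, 8 and 9 each lay below all 8 negative probes of the library, so this rank is of counts under background. Low Gzma in NR was also known when the gene was chosen, so the rank is not support. Gzma remained lower in every NR library by ratio to the negative controls, as 3.9% of probes did. Gzmb and Nkg7 overlapped in that ratio. These comparisons share the PLX+PTX or NR libraries with others above.

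Gzma counts were higher in PLX+PTX than in PTX on every scale examined, with 19 and 21 raw counts in PLX+PTX against 13 and 8 in PTX. Both PTX counts lay below all 8 negative probes, and the 19 counts of PLX+PTX replicate 1 were under its limit of 30.1. For raw counts no share over all probes was taken. The log2 fold change was 1.44 (SE 0.53), and the libraries did not overlap in normalised counts, as for 18.9% of tested probes in that direction, or in the ratio to the negative controls, as for 5.53%. Nkg7 had 19.9 and 21.8 normalised counts in PLX+PTX against 14.5 and 7.36 in PTX (log2 fold change 0.90, SE 0.45), without overlap, though it overlapped in raw counts and in the ratio. Gzmb (0.43, SE 0.34) and Prf1 (0.39, SE 0.58) overlapped. With 2 libraries a group, the median of the 4 genes was 0.67, that of all probes 0.03 and that of the 148 probes never above the limit 0.16. Here too the values had led to the choice of the genes, so that distance is not support.

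**Figure D4:**
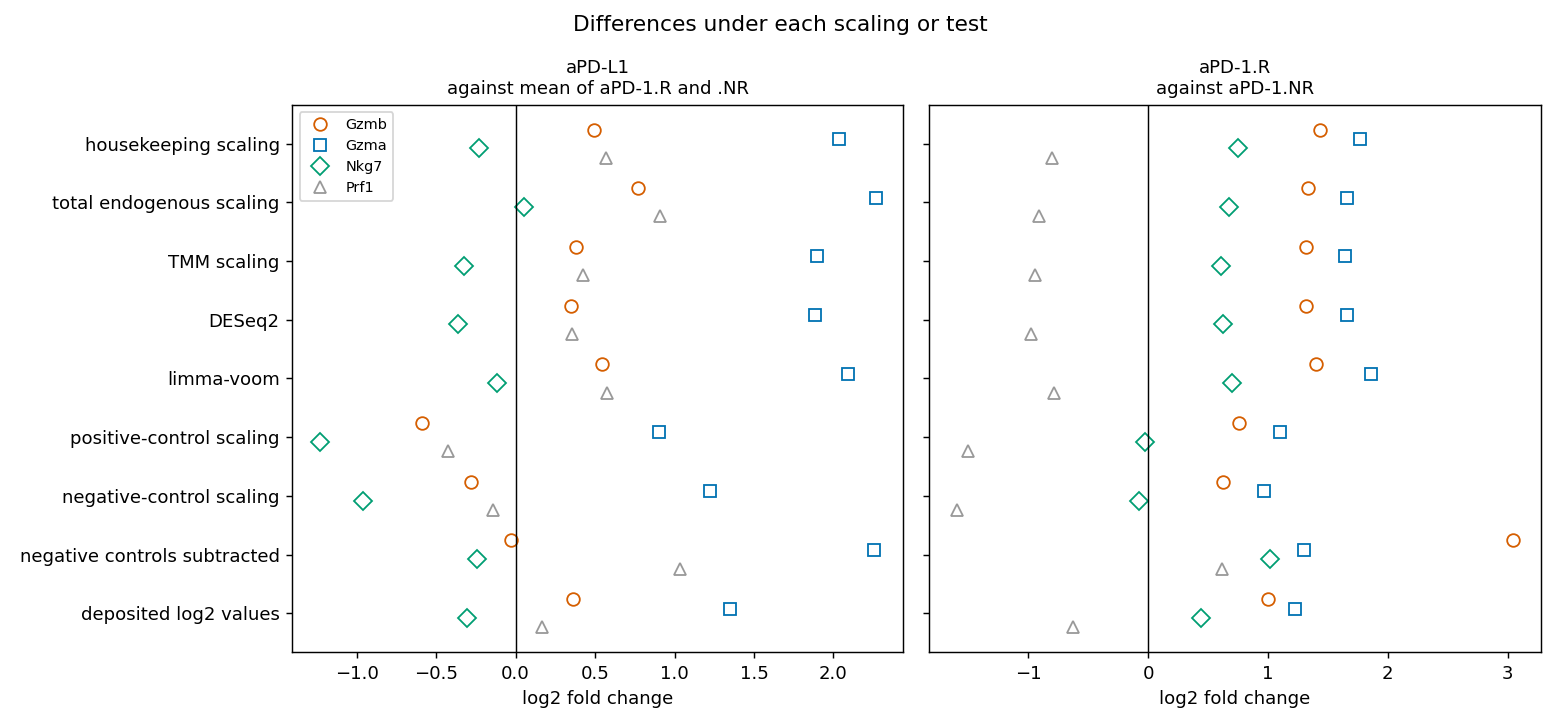
Log2 fold changes of the 4 genes under 9 ways of scaling or testing, for the aPD-L1 group against the mean of R and NR (left) and R against NR (right). Gzma stays above 0 in both panels, and Gzmb turns below 0 on the left under 3 settings.

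Over the 12 libraries the 2 granzymes varied together on the housekeeping scale, with a Pearson r of 0.855 and a Spearman rho of 0.867 for log2 normalised counts. These are descriptions without a test, since all libraries share their scale factor between genes. Gzma correlated with the scaled mean of the negative controls at r = 0.757 and Gzmb at 0.676, and as ratios to the negative controls the granzymes correlated at 0.399. Nkg7 correlated with Gzmb at 0.524 and with Gzma at 0.444, while Prf1 was below 0 with all 3 (-0.217 with Gzma, -0.462 with Gzmb, -0.364 with Nkg7).

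The tested probes most like Gzma over the 12 libraries were Tnfsf13b, the B cell survival cytokine BAFF (r = 0.916), Tdo2, a tryptophan-degrading enzyme (0.886), and the chemokine Cxcl11 (0.872). Tdo2 and Cxcl11 were each above the detection limit in 1 library. For Gzmb they were Gzma, Tdo2 (0.841) and Cd7, a membrane protein of T and NK cells (0.814). For Nkg7 they were Fanca, a DNA repair gene (0.788), Cblc, a ubiquitin ligase (0.733), and Oasl1, an interferon-induced gene (0.708). For Prf1 they were Fbp1, a gluconeogenic enzyme (0.621), Hells, a chromatin remodeller (0.598), and Aqp9, an aquaporin (0.588). Under rank correlation, subtraction of the negative controls, or without the 3 libraries of low signal, 0 to 2 of the 3 neighbours were retained.

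The other genes of killing and of its control came from 8 lists with 80 genes on the panel, of which 47 were tested. Other cytotoxic effectors had 11 genes on the panel and 7 tested, and 0 rose or fell in any of the 7 comparisons. Their median log2 fold change was 0.12 for the aPD-L1 group against the mean of R and NR and 0.35 for R against NR, against 0.10 and 0.11 over all probes. Ccl5, a chemokine of activated T cells, was above the limit in 11 libraries and averaged 81.1 ± 46.3 normalised counts in R against 43.8 ± 12.05 in NR (log2 fold change 0.91, SE 0.43, edgeR adjusted p = 0.644). Gzme, another granzyme, had 11 to 30 raw counts and was above the limit in 2 libraries. Fasl, Ifng, Ccl3 and Klrg1 were above it in none.

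Among the factors known to drive granule genes in CD8 T cells, Tbx21 was above the limit in 3 libraries, Runx3 in 6 and Eomes in 0. None of the 6 tested genes of that list passed in any comparison. Tbx21 had means of 23.0 ± 3.33 normalised counts for R and 14.6 ± 1.30 for NR (log2 fold change 0.68, SE 0.37, edgeR adjusted p = 0.786). Genes on the receiving side of granule killing were well measured, with 6 genes tested and past the limit in at least 6 libraries. Bid, one of the 6, had 70 to 793 raw counts, and 0 of the 6 passed in any comparison.

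Of the 47 list genes, 3 rose in the aPD-L1 group against PLX+PTX, 4 against the mean of R and NR, and 3 against PTX, and 0 fell. These are 6.38%, 8.51% and 6.38% of the list genes, against 2.28%, 5.69% and 3.25% of all tested probes that passed. The lists were chosen with earlier results of these data known. Each count also includes Zap70, which passed the filter through the aPD-L1 group, so the larger shares are not independent support. Of those probes 14 of 14, 35 of 35 and 19 of 20 were higher in the aPD-L1 group too. Zap70, the kinase of the T cell receptor, averaged 71.5 ± 9.18 normalised counts in the aPD-L1 group against 11.4 ± 4.29 in R and NR together (log2 fold change 2.68, SE 0.32, edgeR adjusted p = 0.00017). Cd2, an adhesion receptor of T and NK cells, averaged 45.8 ± 4.70 against 11.6 ± 4.14 (2.01, SE 0.35, edgeR adjusted p = 0.00389), and was above the detection limit in 0 of 12 libraries. Btla, a checkpoint receptor, had a log2 fold change of 1.95 (SE 0.30, edgeR adjusted p = 0.00163). Btla had 8 to 27 raw counts and was above the limit in 1 library. On the housekeeping scale Zap70, Cd2 and Btla also rose against PLX+PTX and PTX. Of the 9 tested genes of the T cell identity list only Zap70 and Cd2 rose. Log2 fold changes were above 0 for 5 of the 9 against PLX+PTX, 7 against the mean of R and NR, and 6 against PTX. The rest of the 9, Cd4 among them each time, were below 0. Over all tested probes 49.1%, 58.4% and 50.6% were above 0 in the same order. Against PTX the log2 fold change of Btla was 0.28 with positive-control scaling and 0.61 with negative-control scaling. Zap70 had 8 to 49 raw counts, was above the limit in 2 libraries, and reached 20 counts in the aPD-L1 libraries only. It thus passed the filter through the group where it was high, so its p-values are not independent support. Apart from the fit without a filter, the alternatives below kept that filter, so passes of Zap70 under them are not independent support either. The calls of list genes differed in how far they depended on the processing and on single libraries. Zap70 passed in 19 of 21 alternatives against PLX+PTX (not without PLX+PTX replicate 2, edgeR adjusted p = 0.0768, or with the deposited log2 values, limma adjusted p = 0.0786), in 21 against R and NR and in 20 against PTX (not without PTX replicate 1, edgeR adjusted p = 0.0629). Cd2 passed in 15 of 21, 20 of 21 and 10 of 21 in the same order of comparisons, with edgeR adjusted p up to 0.19 against PLX+PTX and 0.475 against PTX. Against both, it missed the threshold without either library of the aPD-L1 group or of the group compared with it, and against PTX also without R replicate 1 or NR replicate 2. Btla passed in 17, 20 and 15 of 21, with adjusted p up to 0.0922 and 0.567 against PLX+PTX and PTX, and missed it without either library of the group compared, or against PTX without aPD-L1 replicate 2. With positive-control scaling Cd2 and Btla passed in none of the 3 comparisons. Il18r1, a receptor for the cytokine IL-18, rose against the mean of R and NR (1.72, SE 0.34, edgeR adjusted p = 0.00875) and was above the limit in all 12 libraries; it did not pass with positive-control scaling (0.56, edgeR adjusted p = 0.232) or without aPD-L1 replicate 2 (1.07, edgeR adjusted p = 0.222). Of the 35 probes that passed against R and NR, 5, Gzma among them, were above the limit in neither aPD-L1 library, and so were 3 of the 20 that passed against PTX. Cd8a, the CD8 coreceptor, had 5 to 27 raw counts and was above the limit in no library.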

How the data were processed

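The authors deposited raw counts of 784 probes (750 endogenous, 20 housekeeping, 6 positive and 8 negative controls), per the file headers, and log2 values of 770 probes. Their normalisation was not given in the sources used here; DESeq2 and limma appear in the submitters' processing notes. RNA from snap-frozen tumour was copied to cDNA and amplified for the panel's targets before counting, per the labels' protocols. The raw counts were used, and the deposited log2 values formed an alternative. Library sizes came from the geometric mean of the housekeeping probes, with scale factors of 0.556 to 2.89. All 12 libraries entered one edgeR quasi-likelihood fit of 5 group means (edgeR 4.0.16, R 4.3.3; 7 residual degrees of freedom) on probes with 20 or more counts in at least 2 libraries (615 tested, 135 left out). P-values were Benjamini-Hochberg adjusted, with a threshold of 0.05; they measure the spread between these libraries, which may be technical. Prf1 came from the fit without the filter. DESeq2 1.42.0, limma 3.58.1 (also as limma-voom), other scalings, filters and backgrounds, and leaving out each library were alternatives. The procedure was tested on simulated data. Those counts scaled with the housekeeping signal and had no separate background, so they do not cover genes near the negative controls.

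The members and gene lists were chosen with earlier results of these data known. Genes named were the 4 members, the 3 probes of highest correlation with each (log2 of normalised count + 1), and per list the genes that passed or up to 3 others; Bid, Runx3, Eomes, Gzme, Cd8a, Fasl, Ifng, Ccl3 and Klrg1 were named after their values were seen. One gene of a list is not reported here. The low-signal libraries were set apart after their totals were seen.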

Additional observations from a re-analysis of the deposited data

How the results depend on the processing

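No paired analysis was possible because replicate numbers were given in order of deposition. The number of granule genes under the threshold for the aPD-L1 group, which is no independent support against the mean of R and NR or against PTX, was 0 of 3 against PLX+PTX under all 21 alternatives. Against the mean of R and NR it was 1, and 0 with positive-control scaling and with the negative controls subtracted, where Gzma had 2.26 (limma adjusted p = 0.331); leaving out single libraries gave 0 to 1, with aPD-L1 replicate 2 the library that mattered. Gzma passed in 18 of 21 alternatives (adjusted p 0.00149 to 0.331). Against PTX it was 1, and 0 with positive-control or negative-control scaling (Gzma 1.32, adjusted p = 0.0517) and after subtraction (3.18, limma adjusted p = 0.274). Leaving out libraries gave 0 to 1; Gzma missed the threshold without PTX replicate 1 (2.64, adjusted p = 0.186), PTX replicate 2 (2.36, adjusted p = 0.138) or aPD-L1 replicate 2. It passed in 15 of 21 (adjusted p 0.00299 to 0.274).

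Over all probes the counts passing, 14 against PLX+PTX, 35 against the mean of R and NR and 20 against PTX, were 59, 170 and 365 with positive-control scaling, 138, 145 and 302 with negative-control scaling, 43, 69 and 46 with total endogenous scaling, 34, 53 and 39 with DESeq2, 0, 61 and 61 with the deposited log2 values, and 2, 11 and 1 on probes past the limit in at least 6 libraries. Without a filter they were 16, 55 and 31, with TMM 21, 37 and 31, and after subtraction 12, 20 and 12; leaving out libraries gave 0 to 18, 16 to 53 and 2 to 28.

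Signs that turned were these. Against PLX+PTX, Gzma had -0.039 with positive-control scaling, and Gzmb had -0.87 with positive-control scaling, -0.71 with negative-control scaling, -1.30 after subtraction and -0.10 to 0.47 leaving out libraries (-0.08 without PLX+PTX replicate 1). Against the mean of R and NR, Gzmb had -0.59, -0.28 and -0.026 under the same 3 settings, and Nkg7 had 0.051 with total endogenous scaling and -0.56 to 0.19 leaving out libraries. Against PTX, Gzmb had -0.86, -0.53 and -0.65, and Nkg7 had -1.02 and -0.69 with positive-control and negative-control scaling.

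The median log2 fold change of the 4 genes for R against NR was 0.37 with positive-control scaling, 0.28 with negative-control scaling and 0.72 with the deposited log2 values. For R against PLX+PTX it was -0.32 and -0.48 with the first 2 settings. For NR against PLX+PTX it was -0.44 and -0.52, then -1.81 after subtraction and -0.49 with the deposited values. For PLX+PTX against PTX it was 0.23 with positive-control scaling, 1.19 after subtraction and 0.49 to 1.05 leaving out libraries, the highest without PTX replicate 1. With the limit at the mean plus 1 SD, Gzma passed it in 3 libraries and Nkg7 in 4; at plus 3 SD, Gzma passed in 0. Keeping probes past the limit in at least 6 libraries left none of the 4 genes to test. Negative-control scaling was chosen after seeing the data; other causes were not tested. The highest negative control lay at 19 to 35 counts by library, and 5 of the 48 pairs of a granule gene and a library exceeded it, which limits the fold changes of these 4 genes.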
